A study of Arabidopsis thaliana with 24 samples.

Results

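Roots and rosettes of Arabidopsis thaliana wild type, accession Col-0, were compared at normal sulfur supply. The 6 arrays were the 3 titled for Col-0 roots and the 3 titled for Col-0 rosettes on complete medium, of 24 arrays in all, and every one of the 28583 features was tested. Plants stood in hydroponic culture in short days, lit for 8 h and dark for 16 h. They received all nutrients for 5 weeks and then either stayed on that medium, as here, or spent 5 days without adequate sulfur. The other arrays came from the 2 organs of Col-0 on deficient medium and of the mutant rpt2-3a, named after a proteasome ATPase subunit, at both supplies, with 3 arrays in each of 8 groups. These 3 arrays are biological replicates according to the design text, which says nothing of how many plants each array stands for or of the time of harvest. Roots in hydroponic culture grow in solution and not in soil, and a rosette is a mixture of leaves of several ages with petioles and a shoot apex.

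Rosette leaves fix carbon in chloroplasts, whose photosynthetic complexes are assembled from subunits encoded partly in the plastid genome and partly in the nucleus. Root cells hold small unpigmented plastids that make starch, amino acids and fatty acids but do not photosynthesise. Roots take up water and ions through an epidermis with root hairs, elongate by loosening their cell walls, and in the cabbage family store defence enzymes in bodies derived from the endoplasmic reticulum. In both organs sulfate is reduced to sulfide in plastids, and cysteine is formed from it in the cytosol, plastids and mitochondria.

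The deposited values were read as log2 expression values, so a difference of 1 is a doubling of the measured value. The median value was 4.51, 4.47 and 4.49 on the root arrays, against 4.12, 4.08 and 4.14 on the rosette arrays. Across features the correlation between arrays lay between 0.990 and 0.992 within roots, between 0.991 and 0.993 within rosettes, and between 0.710 and 0.728 for the 9 pairs of a root and a rosette array. No pair within an organ held the same values, since at least 97.8% of features differed. The standard deviation of a feature within a group of 3 was 0.16 in the median.

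A feature was called where limma, fitted over all 24 arrays with 1 mean per group, gave a Benjamini-Hochberg adjusted p under 0.05. It counted as a strong call where the difference also reached 4-fold. By the first rule 18121 features were called, 63.4% of all, of which 12368 (43.3%) were higher and 5753 (20.1%) lower in roots. Of the 4338 strong calls (15.2%), 2376 (8.31%) were higher and 1962 (6.86%) lower in roots. The organ medians differed, and the direction of the small differences depended on how the arrays were scaled. After each array was centred on its median, which moved the median difference by -0.38 to -0.16, 7692 features were higher and 10974 lower in roots. Higher calls were then 41.2% of all calls, compared with 68.3% on the deposited values and 54% after quantile normalization. All 2376 and 1962 strong calls stayed called in their direction under both scalings. Counts of calls among listed genes are to be read beside these shares of all features.

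The extremes were far apart. Differences ran from -9.50 to 8.38, and 629 features were at least 16-fold higher and 645 at least 16-fold lower in roots. At 64-fold the counts were 124 higher and 172 lower. The 3 root and 3 rosette values did not overlap for 18901 features, 66.1% of all. A floor for genes with little or no transcript was taken from 79 genes for reproductive and cysteine-rich LCR peptides, which are known mostly from flowers, pollen and seed. Their median level was 2.00 in roots and 1.96 in rosettes, and 67 of the 79 were not called. After median centring 2 of them were called higher and 32 lower. With their 95th percentile, 3.12, as the upper limit for a low value, 539 features were at 6 or above on all 3 root arrays and low on all rosette arrays, and 399 were the other way round. With the 75th percentile, 2.35, chosen after seeing the data, these counts were 196 and 125. No detection call came with the values, so a fold against a level near this floor is a ratio of measured values and may be smaller than the ratio of transcripts.

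**Figure D1:**
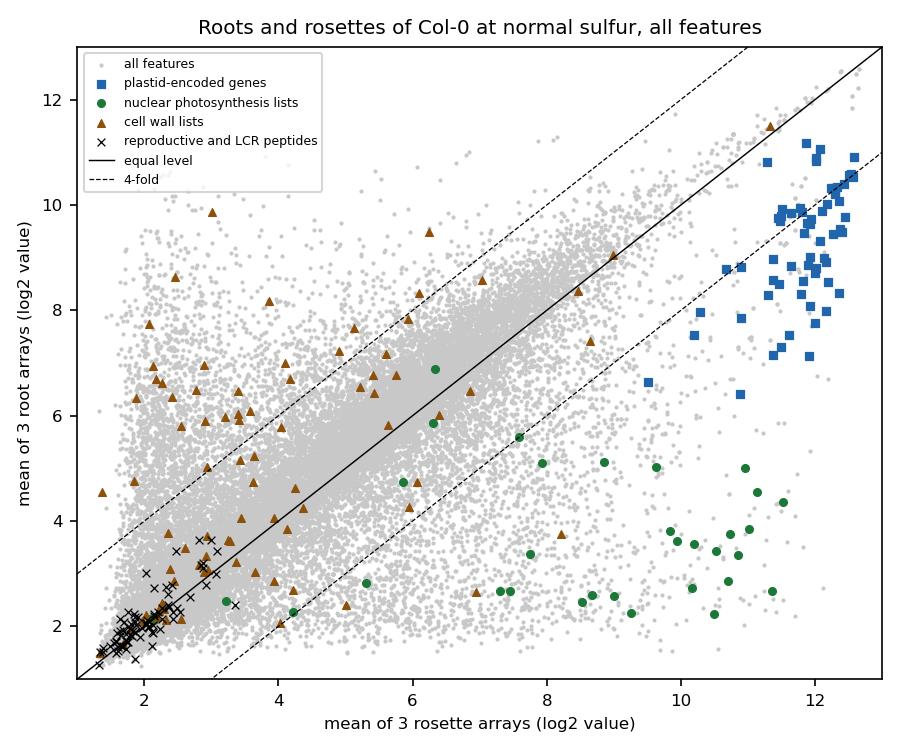
Mean of 3 root arrays (vertical, log2 value) against mean of 3 rosette arrays (horizontal, log2 value) for all 28583 features in grey, with 4 groups of listed genes marked. The 63 plastid-encoded genes lie at the far right below the line of equal level, nuclear photosynthesis genes fall along the bottom right, cell wall genes lie on both sides, and the reproductive and LCR peptides sit in the lower left corner.

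Organ markers followed the names of the arrays. RCA, the activase of Rubisco, had 3.76, 3.61 and 4.16 on the root arrays, against 11.12, 10.95 and 10.96 on the rosette arrays. YAB3, a transcription factor of the outer side of leaves, had 2.20, 2.34 and 2.13 in roots and 6.67, 6.38 and 6.66 in rosettes. EXPA7, an expansin of root hairs, had 7.89, 7.71 and 7.62 in roots and 2.17, 1.81 and 2.23 in rosettes. No array of one organ reached into the range of the other for any of these genes. Of 17 rosette markers found by symbol or synonym 8 had a feature of their own, and of 29 root markers 3 did. All 8 measured rosette markers fell in roots, with a median of -6.54, and all 3 measured root markers rose, with a median of 4.16. In whole organs, fewer cells of a type and less RNA per cell cannot be told apart, which holds for every difference that follows.

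The genes with the lowest values in roots relative to rosettes included subunits and enzymes of the chloroplast and several loci without a symbol. ECS1, the lowest named gene, had 3.07, 2.60 and 2.51 in roots and 12.14, 12.12 and 12.12 in rosettes, a difference of -9.40 ± 0.53 (SE; limma adjusted p = 1.9e-13). PSAE-1, a peripheral subunit of photosystem I, had 2.62, 2.64 and 2.78 in roots and 11.38, 11.34 and 11.35 in rosettes, 409-fold lower in roots (-8.68 ± 0.39, limma adjusted p = 2.9e-15). NdhL, a nuclear subunit of the chloroplast NADH dehydrogenase-like complex, had 2.39, 2.27 and 2.07 in roots and 10.53, 10.48 and 10.46 in rosettes. All 3 were near the floor on every root array and above 10 on every rosette array. COR15A and COR15B, cold-regulated proteins of the chloroplast stroma, differed by -7.22 and -7.66. LrgB, known also as a glycolate and glycerate transporter of the chloroplast envelope, differed by -6.76. Of the loci without a symbol, AT2G25510 (-8.42), AT5G42530 (-8.31) and AT3G62550 (-7.94) were lowest.

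Carbon fixation and the photorespiratory cycle were the lowest list as a whole. Of 21 genes found by symbol 4 had a feature of their own, and all 4 were lower in roots, with a median of -7.13, where 20.1% of all features were lower. SBPASE, sedoheptulose bisphosphatase of the Calvin cycle, had 2.63, 3.01 and 2.93 in roots and 10.75, 10.69 and 10.66 in rosettes (-7.84 ± 0.13, limma adjusted p = 6.5e-23). PRK, phosphoribulokinase, which makes the acceptor of CO2, had 2.13, 2.16 and 2.46 in roots and 9.35, 9.18 and 9.26 in rosettes. Both were close to the floor in roots, 230-fold and 129-fold below rosettes. HPR, the peroxisomal hydroxypyruvate reductase of photorespiration, was lower by 7.09 as well, at 3.30, 3.44 and 3.58 in roots against 10.56, 10.56 and 10.48 in rosettes.

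Nuclear genes for the light reactions were also lower throughout, but the members of small families differed. Each of the 8 genes for photosystem subunits and antenna proteins with a feature of their own, of 47 found by symbol, fell, with a median of -5.60. PSBW of photosystem II differed by -7.15, PSAN of photosystem I by -6.64 and the antenna gene LHB1B2 by -6.58. Of the 3 genes for the minor antenna protein CP29, LHCB4.1 (-4.61) and LHCB4.2 (-4.37) were lower in roots by more than LHCB4.3 (-1.94), whose rosette values of 4.26, 4.39 and 3.99 were themselves low, with 2.15, 2.20 and 2.47 in roots. All 11 genes for electron transport and thylakoid structure fell, with a median of -6.07. They included PIFI (-7.45), a protein needed for chlororespiratory electron flow, the thylakoid ascorbate peroxidase TAPX (-6.03), the rhodanese-like protein TROL (-5.95) and ATPC1 (-6.07), the rotating subunit of the chloroplast ATP synthase. CURT1 proteins bend thylakoid membranes at the margins of grana. CURT1A had 3.74, 3.83 and 3.71 in roots and 10.81, 10.76 and 10.61 in rosettes (-6.97), whereas CURT1D had 5.82, 5.96 and 5.80 in roots and 6.56, 6.35 and 5.99 in rosettes (-0.44 ± 0.12, limma adjusted p = 0.0025). The 2 organs were nearly level for CURT1D and separated by a wide gap for CURT1A. PGRL1B, of cyclic electron flow, differed by only -1.12.

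Tetrapyrrole synthesis makes both chlorophyll and haem. Of 33 genes found by symbol or synonym 10 were measured. Of these 10 genes 7 were lower in roots, 1 was higher and 2 were not called, with a median of -2.24. PORB, which reduces protochlorophyllide in the light, had 3.65, 2.65 and 3.75 in roots and 10.93, 10.89 and 10.76 in rosettes (-7.51 ± 0.30, limma adjusted p = 3e-16). Geranylgeranyl reductase, which supplies the phytyl tail of chlorophyll, differed by -6.31, CHLM, a methyltransferase of the magnesium branch, by -1.99, and the chlorophyll b reductase gene NOL by -2.48. HEME2 and HEME1, uroporphyrinogen decarboxylases of the trunk shared with haem, differed by -3.74 and -2.83 and kept root values between 4.89 and 5.23. HEMA2, a glutamyl-tRNA reductase at the start of the pathway, had 6.95, 6.97 and 6.72 in roots and 6.38, 6.35 and 6.28 in rosettes. Its difference of 0.54 ± 0.13 (limma adjusted p = 0.00061) shrank to 0.17 with an adjusted p of 0.26 after median centring.

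The plastid genome gave a different picture from the nuclear genes. All 63 measured plastid-encoded genes were lower in roots, 44 of them as strong calls, but the median difference was -2.36, where the 33 nuclear photosynthesis genes together had -6.03. Plastid-encoded genes had a median level of 9.47 in roots and 11.93 in rosettes, so that most were bright in both organs. Of the 33 nuclear genes 30 were lower, 1 higher and 2 not called, and their median level was 3.38 in roots and 9.01 in rosettes. The array scale ended near the level of these genes: the highest value of any of the 6 arrays lay between 12.48 and 12.70, and 29 of the 63 plastid-encoded genes had a rosette mean of 12 or more, while no plastid-encoded gene in roots and no nuclear photosynthesis gene in either organ did. How far the end of the scale bears on the smaller differences of the plastid-encoded genes was not tested. After quantile normalization the median of the 63 genes was -1.89, with 61 lower and 1 higher.

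**Figure D2:**
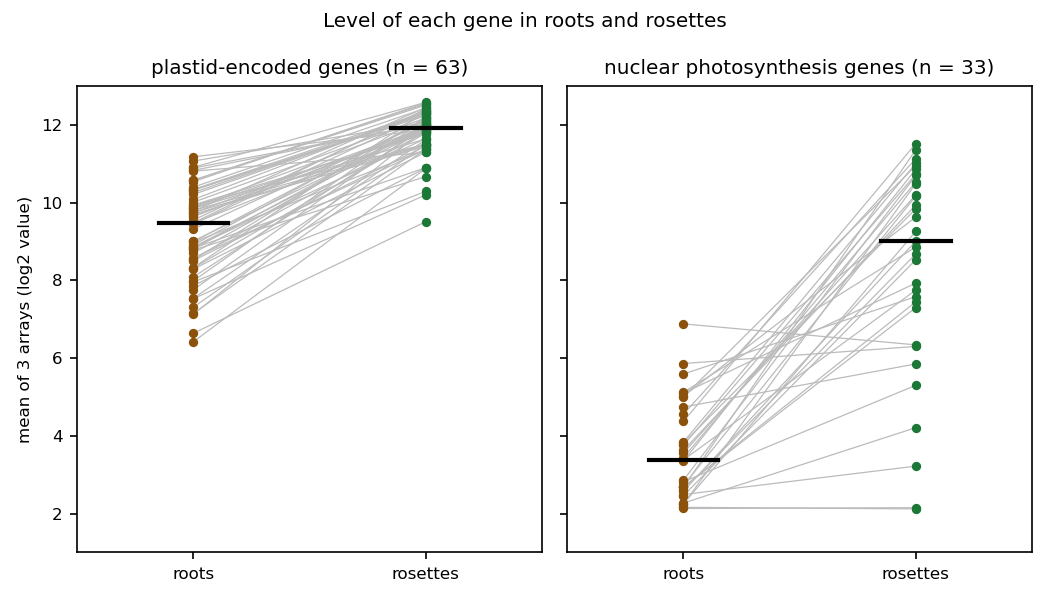
Mean of 3 arrays (log2 value) in roots (left) and rosettes (right) for each of 63 plastid-encoded genes and 33 nuclear photosynthesis genes, joined by a line per gene, with the median of each column as a black bar. The medians are 9.47 in roots and 11.93 in rosettes for the plastid genome, and 3.38 in roots and 9.01 in rosettes for the nuclear genes.

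Plastid-encoded genes were also grouped by the complex they serve. The complexes were not tested against each other, and their ranges overlapped, for example -4.78 to -2.80 for the NADH dehydrogenase-like complex, -4.46 to -1.67 for the photosystems and -4.08 to -1.01 for ribosomal proteins. The 10 genes for the NADH dehydrogenase-like complex, which feeds electrons back into the plastoquinone pool, had the lowest median, -3.39, and all 10 were strong calls. ndhF had 7.19, 7.01 and 7.18 in roots and 11.92, 11.91 and 11.89 in rosettes (-4.78 ± 0.14, limma adjusted p = 6.5e-19), the lowest difference among plastid-encoded genes. The 18 photosystem genes had a median of -2.79 and ranged from psbT (-4.46) to psbA (-1.67). psbA, which encodes the D1 protein of photosystem II, had 10.86, 10.85 and 11.01 in roots and 12.58, 12.55 and 12.61 in rosettes. Medians were -2.26 for the 6 genes of the cytochrome b6f complex, -2.10 for the 4 of the ATP synthase, whose rosette means of 12.13 to 12.54 were at the end of the scale, -2.07 for 13 ribosomal protein genes and -2.11 for the 4 genes of the plastid RNA polymerase. rbcL, the large subunit of Rubisco, had 10.53, 10.58 and 10.59 in roots and 12.49, 12.52 and 12.53 in rosettes (-1.95 ± 0.12, limma adjusted p = 4.5e-13).

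The plastid-encoded genes closest to equal in the organs were accD and clpP, whose products work outside photosynthesis. accD, a subunit of the plastid acetyl-CoA carboxylase that starts fatty acid synthesis, had 10.86, 10.67 and 10.90 in roots and 11.25, 11.32 and 11.29 in rosettes (-0.48 ± 0.09, limma adjusted p = 4.7e-05). Its sign was turned by quantile normalization, which gave 0.35 with an adjusted p of 0.00066. clpP, a subunit of the Clp protease, differed by -0.69 and lost its call under quantile normalization (-0.07, adjusted p = 0.49). The ribosomal protein genes rpl20 (-1.01), rpl16 (-1.13) and rpl14 (-1.19) came next. ccsA, needed to attach haem to c-type cytochromes, lay at the other end with -4.23, and rps14, which encodes a ribosomal protein, with -4.08.

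Nuclear factors that process organelle RNA or assemble photosystems were mostly lower in roots, 14 of 15 with a median of -1.93. CRR42 (-4.56), CRR21 (-3.77), CRR41 (-3.11) and CRR22 (-2.36) are known from mutants of the chloroplast NADH dehydrogenase-like complex. CRR42 had 3.21, 3.06 and 3.09 in roots and 7.76, 7.57 and 7.70 in rosettes. LPA2 (-3.21) and LPA19 (-2.50), assembly factors of photosystem II, were lower too, with LPA1 at -1.36. The exception was OTP43, a factor that splices a mitochondrial transcript, with 3.05, 3.03 and 3.06 in roots and 2.70, 2.61 and 2.67 in rosettes. It was called at 0.39 ± 0.13 (limma adjusted p = 0.015), and this call was lost after median centring (0.01) and quantile normalization (0.09).

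Of 47 starch genes found by symbol or synonym 7 had a feature of their own. Of these 7 genes 6 were lower in roots and 1 was not called, with a median of -2.21. The large subunits of ADP-glucose pyrophosphorylase APL3 and APL4 differed by -3.14 and -2.23, the branching enzyme SBE2.2 by -2.18 and the disproportionating enzyme DPE1 by -2.21. SBE2.2 had 6.40, 6.69 and 6.41 in roots and 8.75, 8.71 and 8.59 in rosettes, well above the floor in both organs. Genes of leaf polarity and stomata were lower as well, in 6 of 7 cases with a median of -3.64. SPCH and FAMA, which act first and last among 3 related factors of the stomatal lineage, differed by -3.86 and -3.52. FAMA had 2.05, 2.21 and 2.13 in roots and 5.70, 5.71 and 5.55 in rosettes. MUTE, the factor that acts between them, was low in both organs, with 1.85, 2.25 and 2.02 in roots and 2.68, 2.52 and 2.34 in rosettes (-0.47 ± 0.13, limma adjusted p = 0.003). INO, a YABBY gene of ovules, was not called (0.15, limma adjusted p = 0.31).

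Genes with the highest values in roots relative to rosettes included secreted proteases, glucosidases and peroxidases. SBT4.12, a subtilisin-like protease, averaged 10.16 ± 0.14 in roots and 2.41 ± 0.45 in rosettes (SD, n = 3 each), 216-fold higher in roots (7.75 ± 0.16, limma adjusted p = 1.3e-21). BGLU21 had 10.32, 9.81 and 10.11 in roots and 2.04, 2.84 and 2.38 in rosettes (7.66 ± 0.20, limma adjusted p = 8.1e-20). These genes were at the floor in rosettes and bright on every root array. Of the 15 highest genes only SBT4.12, BGLU21 and BGLU22 had a symbol in the RefSeq table. AT5G26280 (8.29), AT3G01190 (8.17), AT5G19890 (7.81) and AT4G30170 (7.71) were the highest of the others. Among genes with a symbol, ranked after seeing the data, the hydroxyproline-rich glycoprotein gene HRGP1 (6.05), the matrix metalloproteinase gene MMP (5.44) and cwINV6 (5.14), a fructan exohydrolase of the invertase family, were also among the 15 highest.

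Of 5 families that loosen, build or modify cell walls, expansins, xyloglucan endotransglucosylase/hydrolases and the TBL family were higher in roots in most listed members. GH9 endoglucanases and the few listed class III peroxidases were not. The peroxidase list held 8 measured genes of 15 found by symbol or synonym. Loci without a matching symbol or synonym were not in it, so it does not describe the whole family. Among the highest genes in roots, AT3G01190 (8.17), AT5G19890 (7.81) and AT4G30170 (7.71) were in no list, whatever their family. Expansins, which loosen walls at low pH, were higher in 13 of 23 cases, lower in 3 and not called in 7, with a median of 1.03, where 43.3% of all features were higher. EXPA18, like EXPA7 a root hair gene, had 6.53, 6.48 and 6.04 in roots and 2.23, 2.52 and 2.49 in rosettes (3.94 ± 0.19, limma adjusted p = 5.8e-15). EXLA3 (4.46), EXPB2 (3.27) and EXPA9 (2.91) were higher as well. EXPA8 went the other way, with 3.72, 3.69 and 3.83 in roots and 8.41, 8.15 and 8.07 in rosettes (-4.46 ± 0.19, limma adjusted p = 7.1e-16), as did EXPA16 (-2.59). The 6 strong calls higher in roots and the 2 lower stood beside 7 genes that were not called and mostly low in both organs.

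Xyloglucan endotransglucosylase/hydrolases, which cut and rejoin the hemicellulose tethers of the wall, had the highest median of the lists other than the root markers, 2.72. Of 33 genes found by symbol or synonym 10 were measured. Of these 10 genes 6 were higher, all of them by at least 4-fold, 3 lower and 1 not called. XTH21 had 6.68, 6.66 and 6.54 in roots and 2.37, 2.22 and 2.22 in rosettes (4.36 ± 0.11, limma adjusted p = 7.9e-20), and XTH26 differed by 4.08, XTH20 by 3.19, XTH18 by 3.07 and XTH19 by 2.94. XTH32, with 4.36, 4.29 and 4.17 in roots and 5.92, 6.07 and 5.84 in rosettes, was lower in roots (-1.67), and XTH27 too (-1.23). Endoglucanases of family GH9 were higher in 8 of 19 cases, lower in 1 and not called in 10, with a median of 0.21 that turned to -0.17 after median centring. GH9C1 averaged 6.69 ± 0.31 in roots and 2.17 ± 0.30 in rosettes (SD, n = 3 each; 4.52 ± 0.17, limma adjusted p = 9.2e-17), and GH9B13 9.62, 9.25 and 9.58 in roots and 6.08, 6.32 and 6.31 in rosettes. GH9C2 was bright and level, with 9.05, 9.16 and 8.94 in roots and 9.15, 9.10 and 8.72 in rosettes.

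The TBL family, whose characterised members add acetyl groups to wall polysaccharides, was higher in 15 of 24 cases and lower in 4, with a median of 1.06. TBL36 (4.32) and TBL33 (3.71) were highest. TBL33 had 6.62, 6.53 and 6.29 in roots and 2.59, 2.89 and 2.84 in rosettes. TBL26 was the single strong call in the other direction, with 2.52, 2.76 and 2.66 in roots and 6.93, 6.77 and 7.12 in rosettes (-4.29 ± 0.18, limma adjusted p = 6.3e-16). Class III peroxidases, which couple phenolics in the wall and make or use reactive oxygen, had only 8 listed members. Of these 4 were higher, 2 lower and 2 not called, or 3 higher and 3 lower after median centring. Prx37 had 9.86, 9.88 and 9.87 in roots and 2.24, 2.80 and 3.98 in rosettes (6.86 ± 0.41, limma adjusted p = 6.1e-13), and PRX72, known from lignin formation, 8.68, 8.55 and 8.67 in roots and 2.41, 2.41 and 2.54 in rosettes. PRXR1 was bright in both organs, with 11.48, 11.55 and 11.47 in roots and 11.31, 11.35 and 11.33 in rosettes. Its difference of 0.17 turned to -0.21 after median centring and to 0.93 after quantile normalization.

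**Figure D3:**
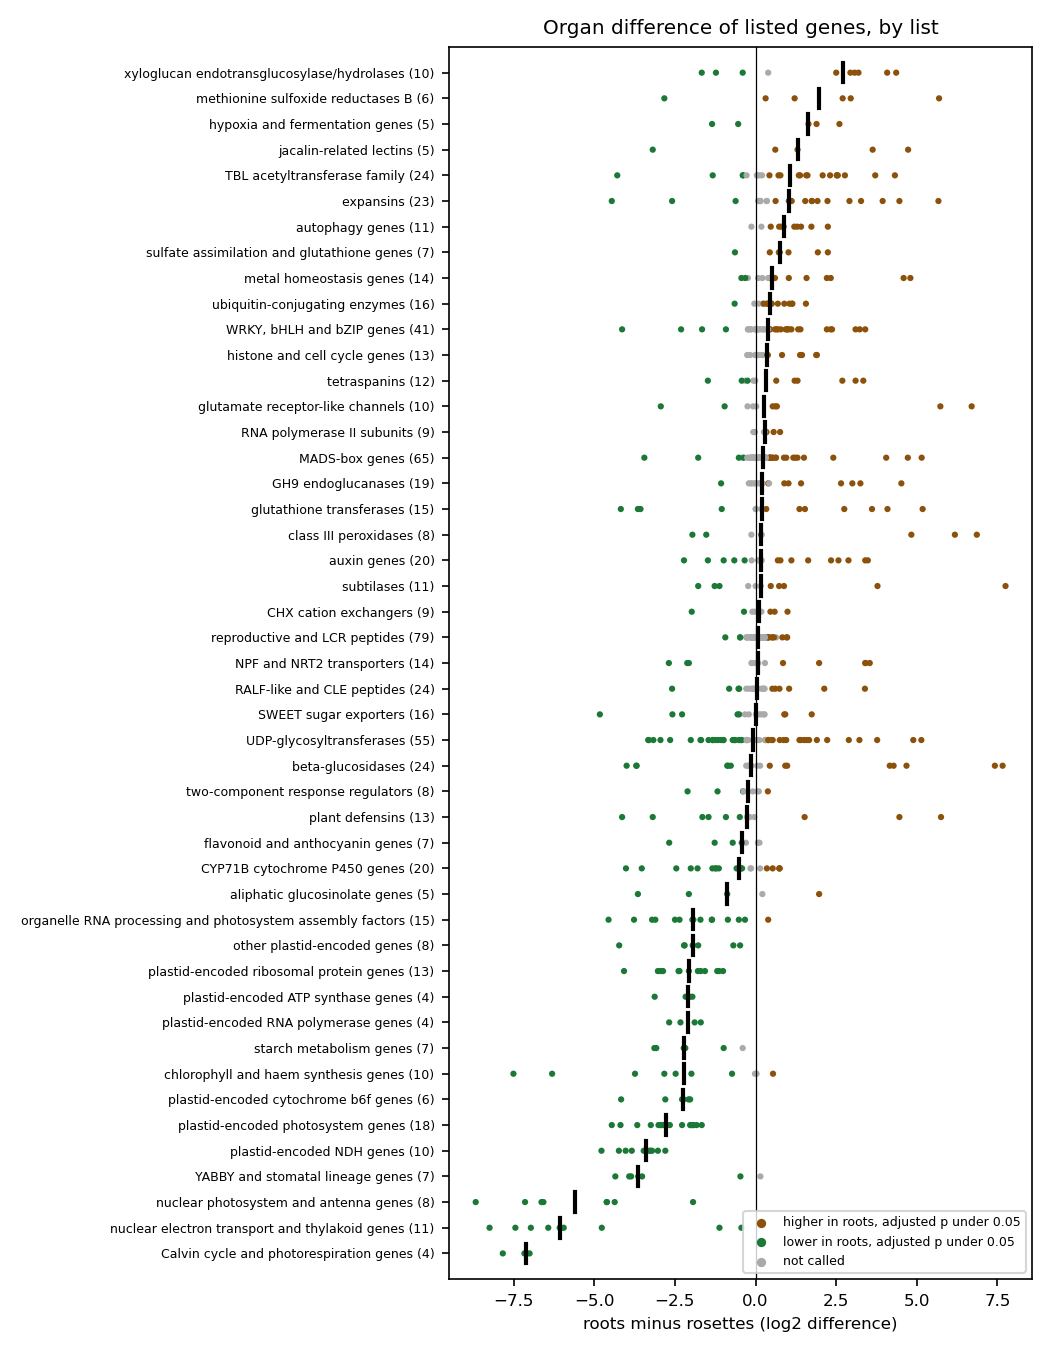
Difference of roots minus rosettes (log2, horizontal) for every measured member of each list other than the organ markers (number of members in brackets), sorted by the list median, which is drawn as a black bar. Brown points were called higher in roots, green points lower, and grey points were not called. The lists at the bottom, of photosynthesis, leaf polarity and stomata, the plastid genome, tetrapyrroles and starch, lie wholly or nearly wholly on the side of rosettes, whereas the lists at the top and in the middle spread to both sides.

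Families of defence proteins had members on both sides, where 43.3% of all features were higher and 20.1% lower in roots. Among 24 beta-glucosidases 8 were higher in roots, 6 lower and 10 not called, with 5 and 3 strong calls. After median centring the balance turned, with 7 higher and 14 lower, and after quantile normalization with 7 and 9. PYK10, the main enzyme of the endoplasmic reticulum bodies, had 11.02, 11.05 and 10.93 in roots and 6.38, 6.91 and 7.22 in rosettes (4.16 ± 0.16, limma adjusted p = 2.1e-16). BGLU22, a close relative of PYK10 and BGLU21, had 9.59, 9.30 and 9.63 in roots and 2.09, 2.18 and 1.98 in rosettes (7.42), and BGLU46, a glucosidase of monolignol glucosides, differed by 4.68. PYK10 was thus brighter than the floor in rosettes, whereas BGLU21 and BGLU22 were at it. BGLU40 (a mean of 3.32 in roots and 7.31 in rosettes), BGLU33 (a difference of -3.70) and BGLU44 (-3.69) were lower in roots. BGLU44 had 6.45, 6.46 and 6.29 in roots and 10.05, 10.19 and 10.03 in rosettes. Of 5 jacalin-related lectins, some of which are found together with PYK10, 4 were higher, with JAL34 at 9.72, 9.60 and 9.68 in roots and 4.72, 4.96 and 5.12 in rosettes (4.73), and JAL23 was lower (-3.19).

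Plant defensins are small cysteine-rich proteins, many of them antimicrobial. Of 6 genes of class PDF2, 3 were higher in roots, 1 lower and 2 not called, and of 7 of class PDF1, 5 were lower and 2 not called. Centring on the median gave 3 higher and 3 lower in class PDF2 and all 7 lower in class PDF1. PDF2.1 had 8.36, 8.31 and 8.58 in roots and 2.49, 2.91 and 2.61 in rosettes (5.75 ± 0.25, limma adjusted p = 1.7e-15), and PDF2.5 differed by 4.46 and PDF2.3 by 1.52. PDF1.2, a marker of jasmonate and ethylene responses, had 1.87, 1.59 and 1.73 in roots and 5.45, 4.53 and 7.64 in rosettes (-4.14 ± 0.82, limma adjusted p = 0.00011). The third rosette array stood at least 1 above both others for PDF1.2 and for PDF1.2b, PDF1.2c, PDF1.3 and PDF1.4. Without that array PDF1.2 differed by -3.26 (adjusted p = 0.0017), and 3 instead of 6 of the 13 defensins were lower in roots. On that array 61 features of all stood this far above both other rosette arrays, and 57 did so on the first rosette array.

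The list of aliphatic glucosinolate genes held 5 measured genes of 11 found, 3 of them lower and 1 higher. GSTU20, GTR1 and AOP1 were lower and GTR2 higher, so the calls were mostly of transporters and a glutathione transferase. GSTU20 also stood in the list of glutathione transferases and GTR2 in that of NPF and NRT2 transporters. The glucosinolate transporters GTR1 and GTR2, which load these compounds into the phloem, had opposite signs, GTR1 at 6.24, 6.15 and 6.71 in roots and 8.24, 8.54 and 8.54 in rosettes (-2.07 ± 0.13, limma adjusted p = 1e-12), and GTR2 at 9.41, 9.36 and 9.31 in roots and 7.35, 7.47 and 7.36 in rosettes (1.97 ± 0.09, limma adjusted p = 5.9e-15). The organs did not overlap for either transporter. Flavonoid and anthocyanin genes were lower in 4 of 7 cases and not called in 3. Their median level was 2.58 in roots and 2.94 in rosettes, below the upper limit of 3.12 for a low value. DFR, dihydroflavonol reductase, was the only strong call, at 3.94, 3.79 and 4.49 in roots and 6.40, 7.19 and 6.66 in rosettes (-2.68).

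Enzymes that modify xenobiotics, hormones and secondary products also had calls on both sides, as all features did. Glutathione transferases were higher in 7 of 15 cases and lower in 4, near the shares of all features, 43.3% higher and 20.1% lower. Strong calls were 4 higher and 3 lower, where 8.31% of all features were strong calls higher and 6.86% strong calls lower. GSTU28 had 7.97, 8.04 and 7.73 in roots and 2.71, 2.83 and 2.67 in rosettes (5.18), and GSTU18 2.53, 2.67 and 2.39 in roots and 6.85, 6.73 and 6.56 in rosettes (-4.18). GSTL3 (-3.57) and GSTU20 (-3.65) were also lower, GSTU26 (4.09) also higher. UDP-glycosyltransferases, with 20 of 55 higher and 22 lower, had a median of -0.09, and 15 higher and 31 lower with a median of -0.47 after median centring. UGT76B1, which glucosylates isoleucic and salicylic acid, had 7.61, 7.44 and 7.77 in roots and 2.04, 2.36 and 3.00 in rosettes (5.14), followed by UGT71C1 (4.89) and UGT71C2 (3.22), while UGT76E11 (-3.33), UGT85A5 (-3.31) and UGT88A1 (-2.95) were lower. Cytochrome P450 genes of subfamily CYP71B were more often lower, 12 of 20, than higher, 5 of 20, and all 4 strong calls were lower, led by CYP71B35 (-4.02) and CYP71B5 (-3.53).

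Methionine sulfoxide reductases of type B, which repair oxidised methionine in proteins, were higher in 5 of 6 cases with a median of 1.95. MSRB9 had 9.34, 9.46 and 9.43 in roots and 3.36, 3.74 and 4.05 in rosettes (5.69 ± 0.16, limma adjusted p = 2.6e-19). MSRB8 (2.95) and MSRB4 (2.70) were also strong calls. MSRB6 was the exception, with 2.01, 1.94 and 2.08 in roots and 4.81, 4.63 and 5.07 in rosettes (-2.83). Among 11 subtilases 5 were higher and 3 lower, where 43.3% of all features were higher and 20.1% lower. After median centring 4 were higher and 5 lower. ATSBT5.2 (3.78) was the only strong call beside SBT4.12, and SBT1.3 (-1.78) was the lowest.

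**Figure D4:**
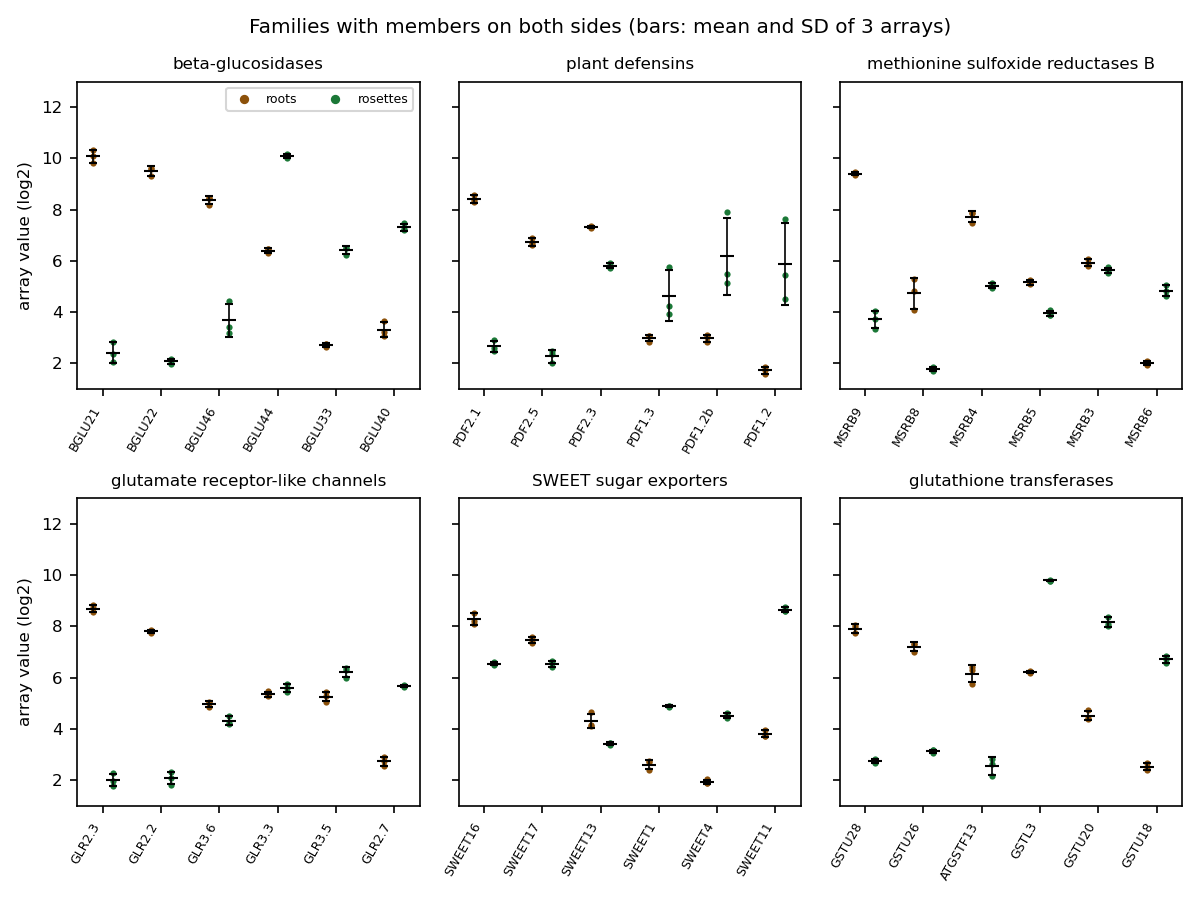
Array values (log2) of the 3 highest and 3 lowest members by difference of 6 families in roots (brown, left) and rosettes (green, right), with the mean and SD of 3 arrays as black bars; the families were selected after their values were seen. Each family has genes on both sides, such as BGLU21 at 10.32, 9.81 and 10.11 in roots against 2.04, 2.84 and 2.38 in rosettes and BGLU44 at 6.45, 6.46 and 6.29 against 10.05, 10.19 and 10.03, and the third rosette array stands high for the PDF1 defensins.

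Transporters differed gene by gene, where 43.3% of all features were higher and 20.1% lower in roots. SWEET proteins carry sugars across membranes, SWEET11 at the plasma membrane on the way into the phloem and SWEET16 and SWEET17 at the vacuole. SWEET11 had 3.97, 3.73 and 3.73 in roots and 8.76, 8.59 and 8.58 in rosettes (-4.83 ± 0.13, limma adjusted p = 1.2e-19). SWEET16 had 8.10, 8.21 and 8.54 in roots and 6.49, 6.53 and 6.61 in rosettes (1.74), and SWEET17 differed by 0.92. Of the 16 measured SWEET genes 3 were higher, 5 lower and 8 not called, or 3 higher and 8 lower after median centring. SWEET4 (-2.58) and SWEET1 (-2.28) were the other strong calls, both lower.

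Nitrate and peptide transporters of the NPF and NRT2 families, 14 in all, were higher in 5 cases and lower in 3, and after median centring higher in 5 and lower in 7. NAXT1, which exports nitrate from root cells, had 9.16, 9.10 and 9.08 in roots and 5.55, 5.49 and 5.69 in rosettes (3.54 ± 0.10, limma adjusted p = 1.8e-19). NPF4.3 (3.40) was the next highest, and NPF6.4 (-2.69) and NPF6.2 (-2.12) were lower. Glutamate receptor-like channels, which carry calcium and other cations, had 5 of 10 higher and 2 lower, counts that became 2 and 4 after median centring. On the deposited values these lists were near the shares of all features, 43.3% higher and 20.1% lower. GLR2.3 had 8.83, 8.56 and 8.70 in roots and 1.96, 1.78 and 2.26 in rosettes, 104-fold higher in roots (6.70 ± 0.13, limma adjusted p = 8e-22), and GLR2.2 differed by 5.73. GLR2.7, of the same clade, had 2.74, 2.56 and 2.91 in roots and 5.67, 5.62 and 5.73 in rosettes (-2.94). The 9 CHX cation exchangers held no strong call, and their counts of 3 higher and 2 lower became 1 and 5 after median centring. CHX20, known from guard cells, was the lowest of them, with 2.59, 2.59 and 2.47 in roots and 4.63, 4.57 and 4.39 in rosettes (-1.98).

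Of 14 metal homeostasis genes 8 were higher and 2 lower, where 43.3% of all features were higher and 20.1% lower. The metallothioneins, cysteine-rich proteins that bind metal ions, had the highest differences. MT1C had 10.12, 10.09 and 10.09 in roots and 5.19, 4.90 and 6.45 in rosettes (4.59), and MT1B 6.86, 6.87 and 6.17 in roots and 2.04, 1.63 and 1.83 in rosettes (4.80 ± 0.22, limma adjusted p = 2.5e-15). The metal transporter gene ZIP6 (2.33) and bHLH115 (2.21), a regulator of iron deficiency genes, were higher by about the same amount, and MTP11, a manganese transporter, was slightly lower (-0.44).

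Since the study varied sulfur supply, every gene of the sulfate assimilation and glutathione list with a usable feature is given, 7 of the 42 that RefSeq symbols and synonyms gave. Of 7 genes 6 were higher in roots and 1 lower, with a median of 0.75. ATP sulfurylase, the enzyme that activates sulfate, was divided between its genes. APS4 had 6.96, 7.08 and 7.16 in roots and 4.85, 4.76 and 4.88 in rosettes (2.24 ± 0.13, limma adjusted p = 5.8e-13), and APS3 had 6.44, 6.65 and 6.76 in roots and 7.31, 7.31 and 7.15 in rosettes (-0.64 ± 0.13, limma adjusted p = 0.00019). SIR, sulfite reductase, had 9.54, 9.58 and 9.40 in roots and 8.73, 8.86 and 8.78 in rosettes (0.72 ± 0.10, limma adjusted p = 1.2e-06). OASA2, of the cysteine synthase family, had 5.34, 5.39 and 5.15 in roots and 4.08, 4.36 and 4.38 in rosettes (1.02). The sulfurtransferase gene STR18 had 5.31, 5.37 and 5.42 in roots and 3.45, 3.45 and 3.42 in rosettes (1.93 ± 0.11, limma adjusted p = 2.8e-13). The organs did not overlap for any of the 7 genes, nor for 66.1% of all features. LCD, a cysteine desulfhydrase, averaged 3.88 ± 0.20 in roots and 3.13 ± 0.05 in rosettes (SD, n = 3 each; difference 0.75, limma adjusted p = 0.00035), and GR1, glutathione reductase, 7.20, 7.38 and 6.83 in roots and 6.73, 6.60 and 6.76 in rosettes (0.44). Both lost their calls under another scaling, GR1 with 0.06 and LCD with 0.38 after median centring, and with 0.25 and 0.34 after quantile normalization.

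Genes of fermentation and low oxygen were mixed, with 3 of 5 higher and 2 lower. Pyruvate decarboxylase, the first step to ethanol, was divided between PDC3, with 5.02, 4.79 and 4.49 in roots and 2.47, 1.98 and 2.04 in rosettes (2.60), and PDC2, with 5.50, 5.63 and 5.33 in roots and 6.84, 6.75 and 6.92 in rosettes (-1.35). The calmodulin-like gene CML38 (1.89) and the hypoxia regulator gene HRA1 (1.64) were higher, and the alanine aminotransferase gene AlaAT1 (-0.54) lower.

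Regulators of growth were also called on both sides, as all features were. Of 55 auxin genes found by symbol or synonym 20 were measured. Of these 20 genes 9 were higher and 5 lower, near the shares of all features, 43.3% higher and 20.1% lower. Strong calls were 5 higher and 1 lower, where 8.31% of all features were strong calls higher and 6.86% strong calls lower. LBD16 and LBD29, transcription factors that start lateral roots, were near the floor in rosettes. LBD16 had 5.38, 5.33 and 5.25 in roots and 1.97, 1.92 and 1.88 in rosettes (3.40 ± 0.13, limma adjusted p = 7e-17), and LBD29 5.10, 4.70 and 4.89 in roots and 2.07, 2.01 and 1.98 in rosettes (2.88). Amido synthetases of the GH3 family couple hormones to amino acids, and GH3.17 (3.48) and GH3.1 (2.34) were higher while GH3.3 (-2.22) and GH3.9 (-1.48) were lower. Two-component response regulators, which relay cytokinin signals, were lower in 3 of 8 cases and higher in 1, or lower in 6 and higher in none after median centring, with RR16 at -2.11 and ARR15 at -1.18.

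MADS-box genes are best known as regulators of flowering, and 42 of 65 were not called in these vegetative organs. The others were 19 higher and 4 lower, or 9 and 17 after median centring. AGL42, AGL21 and AGL79 were among the 4 strong calls higher in roots. AGL42 had 7.20, 7.05 and 7.17 in roots and 2.58, 2.27 and 2.41 in rosettes (4.72 ± 0.11, limma adjusted p = 8.5e-21), AGL79 differed by 5.15 and AGL21, a promoter of lateral root growth, by 4.05. AGL24, a promoter of flowering, was the single strong call lower in roots, with 2.29, 2.06 and 2.00 in roots and 5.52, 5.55 and 5.64 in rosettes (-3.45). In 41 genes of the WRKY, bHLH and bZIP families 20 were higher and 4 lower, counts of 14 and 13 after median centring. PIF7, which promotes growth in shade, had 1.87, 1.97 and 1.71 in roots and 6.08, 5.82 and 6.06 in rosettes (-4.14), and bZIP44 (3.40) and WRKY29 (3.23) were higher in roots. Of 24 RALF-like and CLE peptide genes, whose products signal between cells, 14 were not called, 6 were higher and 4 lower, or 4 and 12 after median centring. RALFL32 was higher (3.39) and RALFL34 lower (-2.59). RALFL34 had 4.30, 4.48 and 4.42 in roots and 7.14, 6.86 and 6.98 in rosettes. Tetraspanins were higher in 6 of 12 cases, led by TET5 (3.34), TET2 (3.10) and TET6 (2.69), and lower in 3, with TET10 at -1.48. These counts were near the shares of all features, 43.3% higher and 20.1% lower. After median centring 5 tetraspanins were higher and 6 lower.

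Lists of general cell functions had smaller differences, where 43.3% of all features were called higher and 20.1% lower. Autophagy genes were higher in 9 of 11 cases with a median of 0.87. ATG8A, which encodes a protein coupled to the membrane of autophagosomes, had 6.54, 6.26 and 6.42 in roots and 4.06, 4.26 and 4.19 in rosettes (2.24), and ATG8H differed by 1.73. After median centring 8 of the 11 were higher and 1 lower. Ubiquitin-conjugating enzymes were higher in 12 of 16 cases and lower in 1, or 6 and 2 after median centring, with UBC16 (1.56) and UBC19 (-0.65) at the ends of the range. Of 59 histone and cell cycle genes found by symbol or synonym 13 were measured. Of these 13 genes 7 were higher and none lower, with a median of 0.36. After median centring 5 were higher and 3 lower, with a median of -0.02, and after quantile normalization 5 and 2. The strongest were SIM (1.90), an inhibitor of cyclin-dependent kinases, and CDC27a (1.88). The 9 subunits of RNA polymerase II had a median of 0.28 with 4 higher and 5 not called, and after median centring none was higher and 2 were lower.

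Across the 49 lists the median difference was above 0 in 27 and below 0 in 22. After median centring 16 of the 27 medians were at or below 0, and after quantile normalization 7 were, while none of the 22 turned. The medians that turned were small, and those of the photosynthetic lists were below 0 under all 3 scalings. Strong calls in both directions occurred in 14 lists, and 5 lists had none. Of all features 8.31% were strong calls higher and 6.86% strong calls lower in roots.

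Strong calls were also looked at by their place on the chromosomes. Measured loci were put in chromosome order, and runs of consecutive loci with strong calls in 1 direction were counted among 16443 loci. Of the 16746 features with 1 gene, 1359 were strong calls higher and 915 lower in roots. How many runs a random order of such calls would give was not tested. There were 139 runs of at least a pair higher in roots and 58 lower, and 27 runs of 3 or more loci higher against 6 lower. With no protein-coding locus allowed between neighbours, a step chosen after seeing the data, these were 15 and 6. The longest run held 6 loci on chromosome 1, AT1G51830 to AT1G51890, with differences from AT1G51870 at 3.08 to AT1G51830 at 6.07. It passed over 1 protein-coding locus for which no feature was named and held 5 loci where none was allowed between. AT1G51830 averaged 8.15 in roots and 2.07 in rosettes. Runs of 5 loci higher in roots were AT1G33870 to AT1G33910, AT2G17050 to AT2G17080, AT2G37750 to AT2G37820 and AT3G51325 to AT3G51360. The run from AT2G37750 passed over 4 such loci and was not found where none was allowed. The run from AT3G51325 held AT3G51330, which was bright in both organs with 10.80 in roots and 6.65 in rosettes, next to AT3G51350, with 8.39 in roots and 2.49 in rosettes. The single run of 5 loci lower in roots, AT4G15660 to AT4G15700 on chromosome 4, had root means between 1.63 and 2.13 and rosette means between 3.96 and 4.78. Neighbours in such runs may be copies of one another, and reads of 1 copy by the probes of another were not tested.

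The organ difference was then measured in 3 conditions on other arrays. Of the 4338 strong calls, 4337 had the same sign in Col-0 on deficient medium, 4338 in rpt2-3a at normal supply and 4337 in rpt2-3a on deficient medium. They were again strong in 92.5%, 89.9% and 91.5% of cases. The median difference of the 63 plastid-encoded genes was -2.36 in Col-0 at normal sulfur, and -2.17, -2.14 and -2.39 in the other conditions in the same order. For the 33 nuclear photosynthesis genes it was -6.03, then -5.83, -5.94 and -6.30. ECS1 differed by -9.40 in Col-0 at normal sulfur, and by -8.48, -7.84 and -8.33 in the other conditions in that order. AT1G66100, another of the 15 lowest genes, had the widest range among them, with -7.59, -7.69, -5.97 and -7.12. The sulfate assimilation list had medians of 0.75, 0.73, 0.82 and 0.85.

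**Figure D5:**
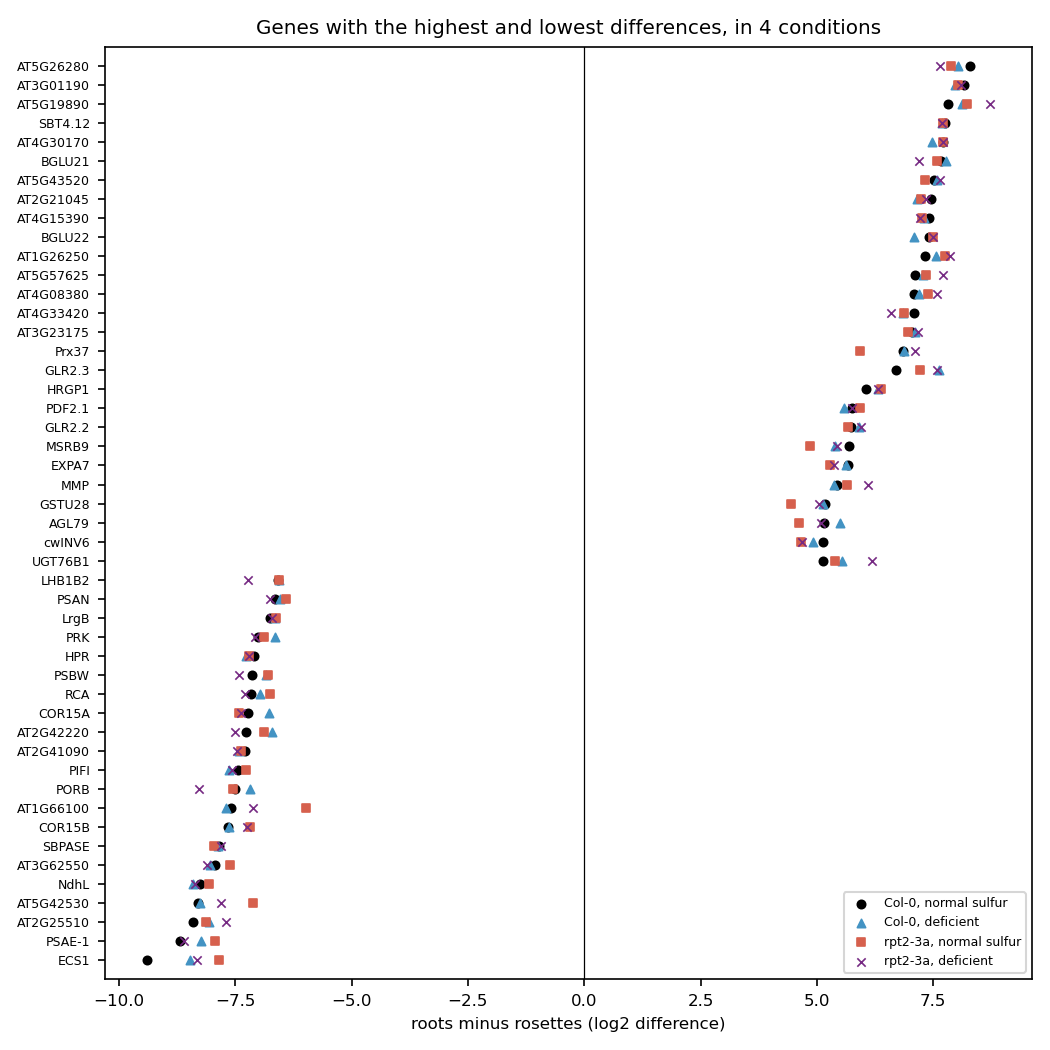
Difference of roots minus rosettes (log2, horizontal) for the 15 highest and 15 lowest genes in Col-0 at normal sulfur, of all genes and of genes with a symbol, in each of 4 combinations of genotype and sulfur supply. Black circles are Col-0 at normal sulfur, by which the genes were chosen. Every gene keeps its side of 0 in all 4 combinations.

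Whether the organ difference itself depended on sulfur or genotype was tested as an interaction in the same limma fit. For sulfur in Col-0, 134 features (0.469%) were called at an adjusted p under 0.05, 94 with a more positive root minus rosette difference on deficient medium and 40 with a more negative one. For genotype at normal sulfur the count was 377 (1.32%), 217 more positive and 160 more negative in rpt2-3a. Of these, 43 and 146 were also strong calls between the organs, and 1 and 0 of them changed sign. None of the 63 plastid-encoded or 33 nuclear photosynthesis genes and none of the 7 sulfate assimilation genes was called in either interaction. Leaving out 1 array moved these counts to between 78 and 174 for sulfur and between 173 and 416 for genotype.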

How the data were processed

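Roots and rosettes were harvested separately, and their total RNA was isolated with TRI Reagent, digested with TURBO DNase and labelled with an Affymetrix WT terminal labelling kit for single-colour arrays, per the labels' protocols. The deposited table has 28583 features on 24 arrays, and its values were taken as log2 expression. Transcriptome Analysis Console is the tool named by the submitters' processing notes. Neither the labels nor the table state its version, the normalization, the log base or the build. Scale and centring are therefore unknown, and folds assume base 2. No detection call, scan date or batch came with the values, and precision rests on 3 arrays a group.

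Features were named through the platform annotation, in which 16746 had 1 gene, 758 several and 11079 none. By gene identifier, 16601 features found an entry in RefSeq (TAIR10.1), used for names and gene order only, and 1777 had a symbol other than the locus name. The remaining features were tested and counted without a name. Where a listed locus had several features, the brightest was used. The feature left out did not always give the same call. UGT85A4 differed by -0.45 on the feature used and by 1.13 on the other, UGT76E12 by 0.30 and -1.84, and AT1G68570 by -0.10 and 0.95. For other loci, such as EXPA20 and UGT73C6, both features had the same call.

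Differences of roots minus rosettes came from limma 3.58.1 under R 4.3.3, with a linear model of all 8 groups, moderated variances, 16 residual degrees of freedom and Benjamini-Hochberg adjustment over all features. Summaries used Python 3.11.15 with pandas 2.3.3. Errors of differences are the standard errors of this model. The procedure was tested on simulated data. A p-value sets a difference of group means against the spread between arrays within groups.

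The members and the 49 gene lists were chosen with earlier results of these data known. Lists were drawn from RefSeq symbols and synonyms and hold only genes with a feature of 1 gene, and genes that carried a family's symbol for another function were removed by hand. Several lists therefore hold a minority of the genes found, for example 41 of 135 WRKY, bHLH and bZIP genes. Named were the 15 highest and 15 lowest genes without overlap between organs, up to 4 members of each list by smallest p and up to 2 called members against its median, all organ markers and sulfate assimilation genes, 5 genes per interaction and the longest runs of neighbours. The 15 highest and lowest genes with a symbol, and further members that show how a list divides, were named after their values were seen. Alternatives were median centring, quantile normalization, a filter that kept features with at least 4 on at least 3 of the 6 arrays, a fit of the 6 arrays alone, a replicate block, trend and robust options, array weights, a test against 2-fold and leaving out each array of the groups compared.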

Additional observations from a re-analysis of the deposited data

Results flagged for a closer look

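The genes named for a difference of the root minus rosette difference between conditions were the 5 with the smallest p in each interaction (limma, adjusted over all features), with means ± SD of 3 arrays. For sulfur in Col-0, AT4G37220 had 5.60 ± 0.16 in roots and 2.19 ± 0.27 in rosettes on deficient medium, against 2.87 ± 0.19 in roots and 2.07 ± 0.38 in rosettes at normal sulfur (difference of differences 2.61 ± 0.26, adjusted p = 7.3e-06). AT1G75290 had 6.42 ± 0.16 in roots and 2.96 ± 0.44 in rosettes on deficient medium, against 3.34 ± 0.59 in roots and 2.73 ± 0.30 in rosettes at normal sulfur (2.86 ± 0.37, adjusted p = 0.00032). AT5G10040 (1.65, adjusted p = 2.7e-05), AT4G25410 (1.60, adjusted p = 0.00028) and AT4G31330 (1.81, adjusted p = 0.00032) also had a larger root excess on deficient medium. AT4G31330 had 6.22 ± 0.06 in roots and 3.07 ± 0.13 in rosettes on deficient medium, against 4.07 ± 0.09 in roots and 2.73 ± 0.39 in rosettes at normal sulfur.

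For genotype at normal sulfur, HRA1 (AT3G10040) had 6.85 ± 0.40 in roots and 2.38 ± 0.27 in rosettes of rpt2-3a, against 4.16 ± 0.05 in roots and 2.52 ± 0.05 in rosettes of Col-0 (2.83 ± 0.37, adjusted p = 0.00048). AT5G15360 lost most of its root excess, with 3.67 ± 0.61 in roots and 3.39 ± 0.12 in rosettes of rpt2-3a, against 6.66 ± 0.26 in roots and 3.79 ± 0.09 in rosettes of Col-0 (-2.59 ± 0.28, adjusted p = 8.9e-05). AT3G22235 had 3.23 ± 0.15 in roots and 7.23 ± 0.42 in rosettes of rpt2-3a, against 2.81 ± 0.15 in roots and 4.77 ± 0.20 in rosettes of Col-0 (-2.04 ± 0.25, adjusted p = 0.00026). AT4G25410 (1.69, adjusted p = 0.00026) and AT1G49450 (1.73, adjusted p = 0.00046) had a more positive difference in rpt2-3a. AT1G49450 had 6.57 ± 0.23 in roots and 5.50 ± 0.17 in rosettes of rpt2-3a, against 5.73 ± 0.25 in roots and 6.39 ± 0.06 in rosettes of Col-0, so that its organ difference turned sign. The roots of Col-0 at normal sulfur that enter both interactions are the same arrays, so the 2 values of AT4G25410 share them.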

How the results depend on the processing

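Median centring gave 7692 features higher and 10974 lower in roots, and a test against 2-fold in place of 0 (limma treat) gave 3782 and 2735, against 12368 and 5753. The strong calls and the counts of calls under the other alternatives stayed within 1.5 times of the values reported. Leaving out 1 of the 6 arrays gave 11655 to 11836 features higher, 5466 to 5723 lower, 2346 to 2411 strong calls higher, 1955 to 2003 lower, and 4299 to 4383 strong calls with the same sign in all 3 other conditions. The interaction counts were less stable: 78 to 174 for sulfur, with 80 without the first Col-0 rosette array at normal sulfur and 78 without the third on deficient medium; and 173 to 416 for genotype, with 234 without the first Col-0 root array and 173 without the first Col-0 rosette array at normal sulfur, and 174, 189 and 189 without the third root, second root and second rosette array of rpt2-3a. Of 245 named genes, 45 lost their call or turned under at least 1 alternative, 14 of them outside the test against 2-fold, and NRPB3 (-0.04) and NRPB10 (-0.08) turned under median centring. Counts within lists changed with the scaling, as given beside those whose balance turned. The cause was not tested.

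Root and rosette arrays share replicate numbers, but the labels do not say that a number marks shared plants, so the numbers were not taken as pairs. Deviations from the group means correlated by 0.10, 0.06 and 0.06 for equal numbers and by -0.07 to 0.00 for unequal numbers. Every value for equal numbers was thus above every value for unequal ones. Deviations from a group mean cancel within the group, so these values are not independent, and their order alone cannot show pairing. Whether equal numbers share plants or handling was not tested. With the replicate number as a block 12362 features were higher and 5776 lower, or 12061 and 5651 with the 6 arrays alone, and strong calls were 2376 and 1962. Values near the floor and near the end of the scale limit what small differences can show.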
